A study of Mus musculus with 78 samples.

Results

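Axon guidance ligands and receptors were followed across sorted cell types of the adult mouse retina. The members were the probe sets carrying a single gene symbol that begins with Sema, Plxn, Epha, Ephb, Efna, Efnb or Unc5, or that reads Nrp1, Nrp2, Slit1 to Slit3, Robo1 to Robo3, Ntn1, Ntn4 or Dcc. This gave 67 genes, each with 1 probe set, of 19301 genes on the array. They comprised 20 semaphorins, 9 plexins, 2 neuropilins, 13 Eph receptors, 8 ephrins, 3 Slits, 3 Robos, 2 netrins and 5 netrin receptors (Dcc and Unc5a to Unc5d). The remaining 2, Unc50 and Unc5cl, met the spelling of the rule but are not known guidance receptors. Both stay in the member counts below, and Unc50 is among the tested members.

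These families carry signals between neighbouring cells or from secreted cues to growing axons and dendrites. Semaphorins act on plexins, with neuropilins as co-receptors for most secreted semaphorins. Ephrins act on Eph receptors by cell contact and help to lay out the retinotopic map. Slits repel axons through Robo receptors, and netrins attract through Dcc or repel through Unc5 receptors. In the retina, transmembrane semaphorins and A-type plexins are known to confine neurites to sublayers of the inner plexiform layer, and netrin and Slits are known for steering ganglion cell axons into and beyond the optic nerve.

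The series held 78 Affymetrix arrays in 26 sets of 3 biological replicates from 22 transgenic lines, with 200 cells sorted by fluorescence for each sample after 15 min of papain dissociation. Every sample was labelled adult, on an FVB/N-Swiss Webster hybrid background mixed with C57BL/6J. Mice from the public resource centre came from stock with a recessive mutation that causes photoreceptor degeneration, and their F2 after backcrossing was used. A reporter line marks the cells in which its driver is or, for Cre lines, has been active, so a line can hold more than 1 cell type. The Cre drivers named here were crossed to Rosa26-LSL-RFP except PV.

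The photoreceptor class held 3 lines and 15 arrays: b2-Cre (rods, 3 sets), Tg(Chrnb4-EGFP)1Gsat (cones) and d4-Cre (cones). The horizontal class was 1 line, B6Cf1-Tg(Gja10-Cre, #14)BR. The bipolar class held 4 lines: B6Cf1-Tg(mGlur6-Cre)BR (ON bipolar), B6Cf1-Tg(Kcng4-CreERT2, #)BR and Tg(Lhx4-EGFP)199Gsat (both labelled bipolar cell without a subtype) and B6:FVB-Tg(Pcp2-EGFP)2Yuza (rod bipolar). The amacrine class held 9 lines and 33 arrays: Tg(Arc-EGFP)194Gsat/Mmcd (3 sets), Tg(Igfbp2-EGFP)17Gsat, Tg(Rgs5-EGFP)24Gsat, Tg(Crh-Cre)282Gsat/Mmnc, 129S6-Chat_tm1(cre)Lowl/J (starburst, called ChAT below), Tg(Chrna3-EGFP)BZ135Gsat/Mmnc, Tg(6430514L14Rik-EGFP)95Gsat (called Fam81a), Tg(Fbxo32-EGFP)138Gsat/Mmcd and Tg(Ier5-EGFP)267Gsat. The ganglion class held 4 lines: 129SVCB6(PV-CRE#32)SA-09 crossed to ThyStopY (PV), Tg(Drd4-EGFP)W18Gsat/Mmnc, C57BL/6-Tg(Grik4-Cre)G32-4Stuj and mOpn4-Cre1D4 (melanopsin cells). The Drd4 samples were labelled RFP although their transgene carries EGFP. The microglia class was 1 line, Tg(Csf2rb2-EGFP)334Gsat. Lines are called by their driver gene below.

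Summed marker intensities followed the classes, and each list summed higher in its own sets than in any other set. This held for the rod, cone, horizontal, bipolar, amacrine, starburst, ganglion and microglia lists. In ChAT, Slc18a3 gave 1527 of the starburst sum of 1651 and Sox2 gave 98.8. Chat was at 9.16, Slc5a7 at 9.92 and Megf10 at 5.31, and Megf10 was higher in other sets, such as Gja10 (7.57). Other cell types were also visible in some sets. The Müller glia list summed to 2621 in Drd4, 1485 in Grik4 and 1303 in Crh against a median of 335 over the 26 sets, and the endothelial list to 763 in Grik4 and 297 in Drd4 against a median of 47.4. Cldn5 gave 681 of the endothelial sum in Grik4 and 232 of that in Drd4. The bipolar list summed to 421 in Drd4, its highest sum outside the bipolar sets, against a median of 60.9. Of that sum, Cabp5 gave 229 and Scgn 103. Grik4 also had the highest pigment epithelium sum (756, median 35.2), of which Ttr gave 654 and Rpe65 75.3. The other markers of that list, Best1, Tyr and Mlana, lay in Grik4 within the range of the other sets. The microglia list summed to 616 in Grik4 and 266 in mGluR6 (median 72.1) and the pericyte list to 363 in Rgs5 (median 62.9). Of that pericyte sum, Rgs5, the driver gene of the line, gave 183, Acta2 94.0 and Kcnj8 51.9. The pericyte markers Pdgfrb, Cspg4, Abcc9 and Notch3 lay in the Rgs5 line within the range of the other sets. The cone list reached 1048 in Chrna3. The rod list reached 847 in Crh, of which Gnat1 gave 840, while Nrl (4.68) and Pde6b (1.91) were far below their levels in b2 (105 to 121 and 669 to 1053). The lowest correlation between arrays of a set was 0.700 in Crh, and it was below 0.8 in 5 sets (Crh, Chrna3, Chrnb4, Drd4 and Lhx4).

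The 250 bases before the annotated start of the genes on which the class and ganglion results turn are given 5′ to 3′ on the gene's strand, from RefSeq on GRCm38.p6. Capitals mark any match, on either strand, to TAATCC (the core bound by the Otx2 and Crx homeodomain factors), GAGGAA (the core bound by PU.1 and other ETS factors), CAGCTG (an E-box) or TATAAA. The windows lie at chr4:28812881-28813130 (+) for Epha7, chr8:128358823-128359072 (+) for Nrp1, chr15:89180789-89181038 (-) for Plxnb2 and chr5:47982905-47983154 (+) for Slit2.
Epha7: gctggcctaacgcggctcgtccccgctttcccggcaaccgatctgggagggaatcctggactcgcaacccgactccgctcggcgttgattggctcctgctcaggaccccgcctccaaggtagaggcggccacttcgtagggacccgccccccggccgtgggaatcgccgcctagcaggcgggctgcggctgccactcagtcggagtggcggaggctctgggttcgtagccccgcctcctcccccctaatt
Nrp1: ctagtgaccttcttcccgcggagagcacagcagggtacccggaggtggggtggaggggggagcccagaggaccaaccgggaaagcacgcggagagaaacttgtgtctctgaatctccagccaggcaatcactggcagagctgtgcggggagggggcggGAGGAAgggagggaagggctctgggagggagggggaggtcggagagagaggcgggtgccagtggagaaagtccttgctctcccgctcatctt
Plxnb2: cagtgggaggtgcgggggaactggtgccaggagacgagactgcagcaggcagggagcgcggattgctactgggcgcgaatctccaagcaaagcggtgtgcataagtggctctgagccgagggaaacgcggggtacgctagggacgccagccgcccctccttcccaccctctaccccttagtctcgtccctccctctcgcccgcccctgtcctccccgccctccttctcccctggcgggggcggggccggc
Slit2: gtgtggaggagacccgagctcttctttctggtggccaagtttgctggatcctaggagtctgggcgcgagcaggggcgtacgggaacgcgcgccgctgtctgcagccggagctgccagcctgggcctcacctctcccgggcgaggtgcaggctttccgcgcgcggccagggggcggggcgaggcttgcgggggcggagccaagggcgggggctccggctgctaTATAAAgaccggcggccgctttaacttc
Epha7 and Plxnb2 held none of the 4 motifs here, Nrp1 held 1 GAGGAA and Slit2 held 1 TATAAA. Epha7 and Plxnb2 each have 2 annotated starts, and only the window before 1 of them is shown and described. Of 32851 such windows in the table, 6.25% held TAATCC, 23.3% GAGGAA, 13.0% CAGCTG and 12.4% TATAAA. The table had a start for 57 of the 67 members. All 4 windows were rich in G and C, from 64.4% in Nrp1 to 69.6% in Slit2, where the median over all windows was 52.4% and over the 73 windows of the members 64.4%. A match describes letters only.

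Tests were limited to genes for which 1 or more set means exceeded 9.01, the median of all intensities. Of the 67 members, 57 were tested, and 10 were dim in every set: the ephrin Efna3, the receptors Epha1, Epha2, Plxnc1, Plxnd1 and Unc5a, the semaphorins Sema3c, Sema3d and Sema4c, and Unc5cl. On 70 of the 78 arrays the lowest intensities followed probe set order, and the longest such run ended at 3.99. Ranges were taken after lower values on every array were raised to 3.99. On arrays with a shorter run, some values below 3.99 can still carry order. Most tested members varied little between cell types. Their median range over the 26 set means was 1.01 log2 units, where the median over all 15102 genes tested was 1.73. A range of 2 log2 units or more was found for 9 members (15.8%) and for 41.0% of all genes tested. The 9 were the Eph receptors Epha7 (5.13), Ephb6 (2.37) and Epha4 (2.31), the netrin receptor Unc5d (at least 4.83), the secreted semaphorin Sema3f (at least 3.16), Slit2 (2.33), the co-receptor Nrp1 (2.31), the transmembrane semaphorin Sema6a (2.20) and Robo2 (2.02). Epha10, with 2 arrays raised, was at 1.99. No plexin, ephrin or netrin reached that range. In 44 of the 57 members, no set mean reached an intensity of 20, against 42.1% of all genes. The set with the highest mean was one of the 5 with array correlations below 0.8 for 33 of 57 members (57.9%) and for 34.3% of all genes tested; Crh alone was highest for 14 members (24.6%) and for 12.5% of all genes. Whether the lower agreement of those arrays bears on these levels was not tested.

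**Figure D1:**
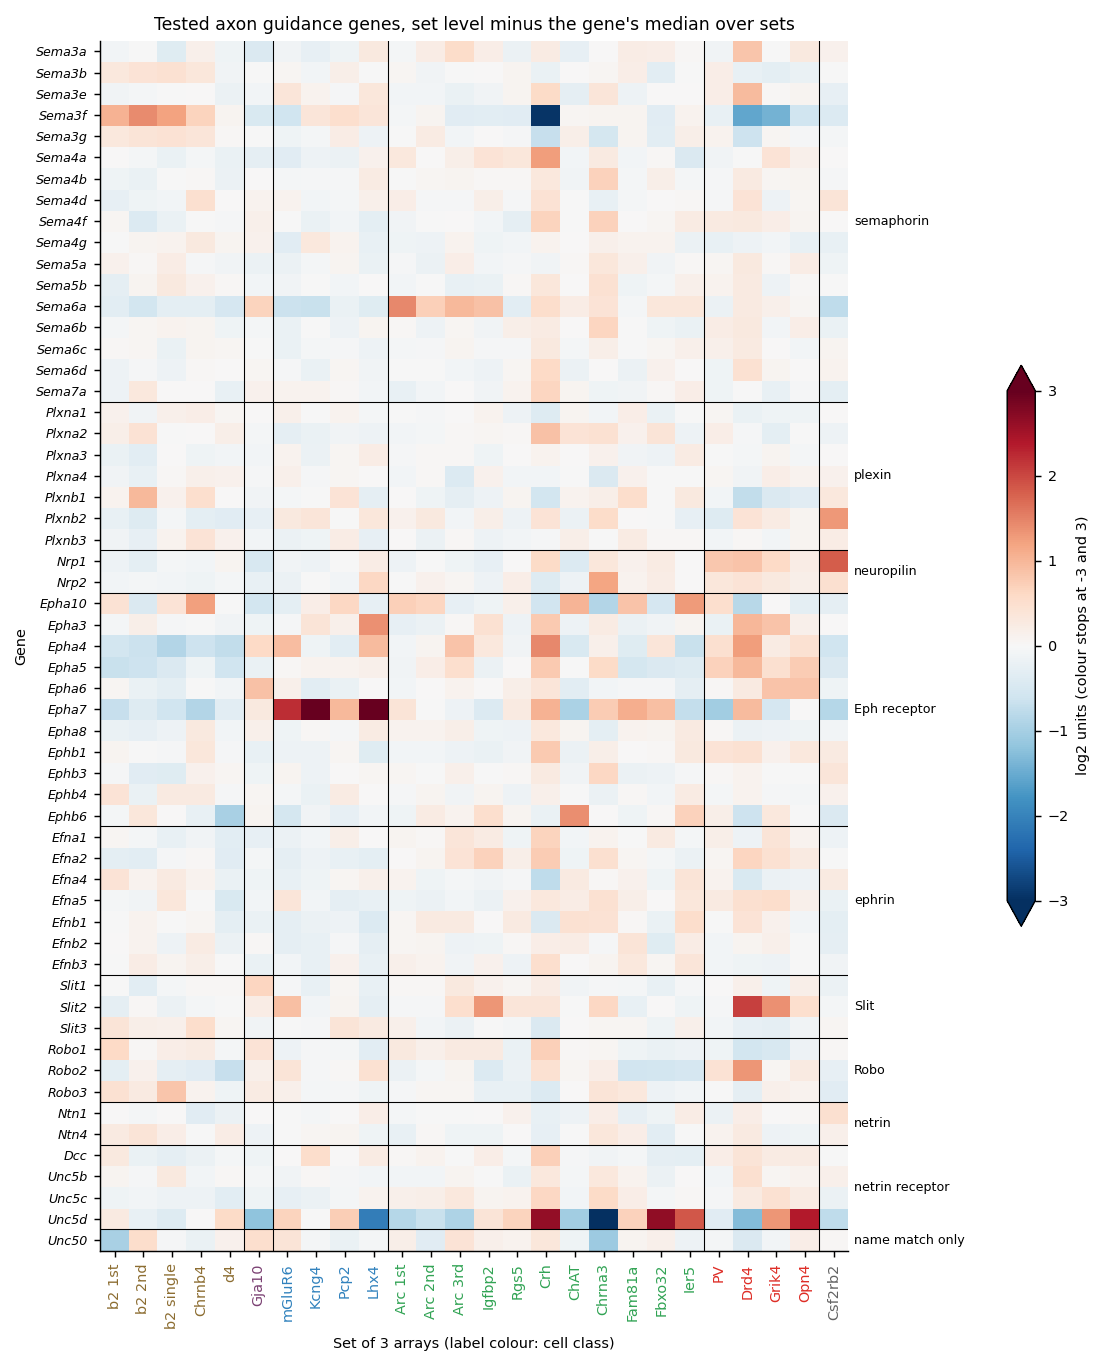
Each cell is the mean of 3 arrays for 1 tested member (rows, by family) in 1 set (columns, label colours for the cell classes), as log2 intensity minus the gene's median over the 26 sets. Most rows are pale; Epha7 stands out in the bipolar sets, Unc5d and Sema3f run from deep red or red to deep blue, and Nrp1 and Plxnb2 are highest in the microglia set Csf2rb2.

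Classes were set against the average of the remaining 5 over the 22 line means (limma, Benjamini-Hochberg adjustment over all genes tested), and a call needed an adjusted p under 0.05 with a log2 difference of 1 or more. Of 342 such member tests 3 were called, 0.877%, where 4.42% of all gene tests were. The called members were Epha7 in the bipolar class and Nrp1 and Plxnb2 in the microglia class, all higher, where limma called 2.66% and 9.32% of all genes in either direction. No member was called in the photoreceptor, horizontal, amacrine or ganglion class, where limma called 6.36%, 1.21%, 2.77% and 4.23% of all genes. The median absolute difference of the members was below that of all genes in each of the 6 classes, for example 0.18 against 0.26 log2 units in the ganglion class and 0.10 against 0.19 in the bipolar class. The 95% interval lay within 1 log2 unit of 0 for 51 of 57 members in the photoreceptor class, 40 in the horizontal, 53 in the bipolar, 56 in the amacrine, 50 in the ganglion and 43 in the microglia class. A sample pools sorted cells, so more cells with a transcript and more transcript per cell cannot be told apart.

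Epha7, a receptor tyrosine kinase for A-type ephrins, was the member that set bipolar lines apart. Its intensity was 428, 360 and 362 on the 3 Lhx4 arrays and 315, 379 and 361 on the 3 Kcng4 arrays. It was 85.7, 151 and 85.7 in mGluR6 and 48.7, 25.0 and 70.3 in Pcp2. All Lhx4 and Kcng4 arrays lay above all other arrays of the series; mGluR6 followed, also above every remaining array, whereas Pcp2 arrays overlapped those of amacrine and ganglion lines. Outside the class the line means ran from 10.9 in PV to 47.5 in Fam81a, and neighbours in that order overlapped throughout. The bipolar class mean was 157 against 19.4 for the other classes, a difference of 3.02 ± 0.52 log2 units (SE, 4 lines; adjusted p = 0.0015), with 1.52% of all genes called higher in this class. Among the lines of batch 3 the difference was 4.08 (adjusted p = 0.0047) and with batch removed 3.02 (adjusted p = 0.0070). Among the lines of batch 1, where Pcp2 was the only bipolar line, it was 1.60 (adjusted p = 0.89).

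Within the bipolar class, Epha7 also differed between lines. Pcp2, the rod bipolar line, was lower than the mean of the other bipolar lines by 2.45 log2 units (SE 0.38, adjusted p = 1.0e-05), with no overlap of arrays. Lhx4 was higher by 1.71 (adjusted p = 0.0028) and Kcng4 by 1.54 (adjusted p = 0.019), and the arrays of these 2 lines overlapped each other only. The Kcng4 call was lost with any 1 replicate number left out (1.43 to 1.63) and with batch as a term (1.77, adjusted p = 0.051), and the Lhx4 call without replicate 1 (1.58, adjusted p = 0.063); the Pcp2 call was kept in each. Chosen after these values were seen, the comparison of the 2 lines labelled bipolar cell with the ON and rod bipolar lines gave 2.44 (95% interval 1.78 to 3.09, adjusted p = 2.1e-07), where 1.83% of all genes were called. The difference of Kcng4 from Lhx4 was -0.12, with a 95% interval from -1.05 to 0.80, and 0.901% of all genes were called between them. mGluR6 exceeded Pcp2 by 1.23 (95% interval 0.31 to 2.16, adjusted p = 0.11), which missed the threshold, in a comparison with 4.08% of all genes called. Kcng4 and Lhx4 share batch 3, while mGluR6 is in batch 2 and Pcp2 in batch 1, so line and batch cannot be told apart in these 2 comparisons.

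**Figure D2:**
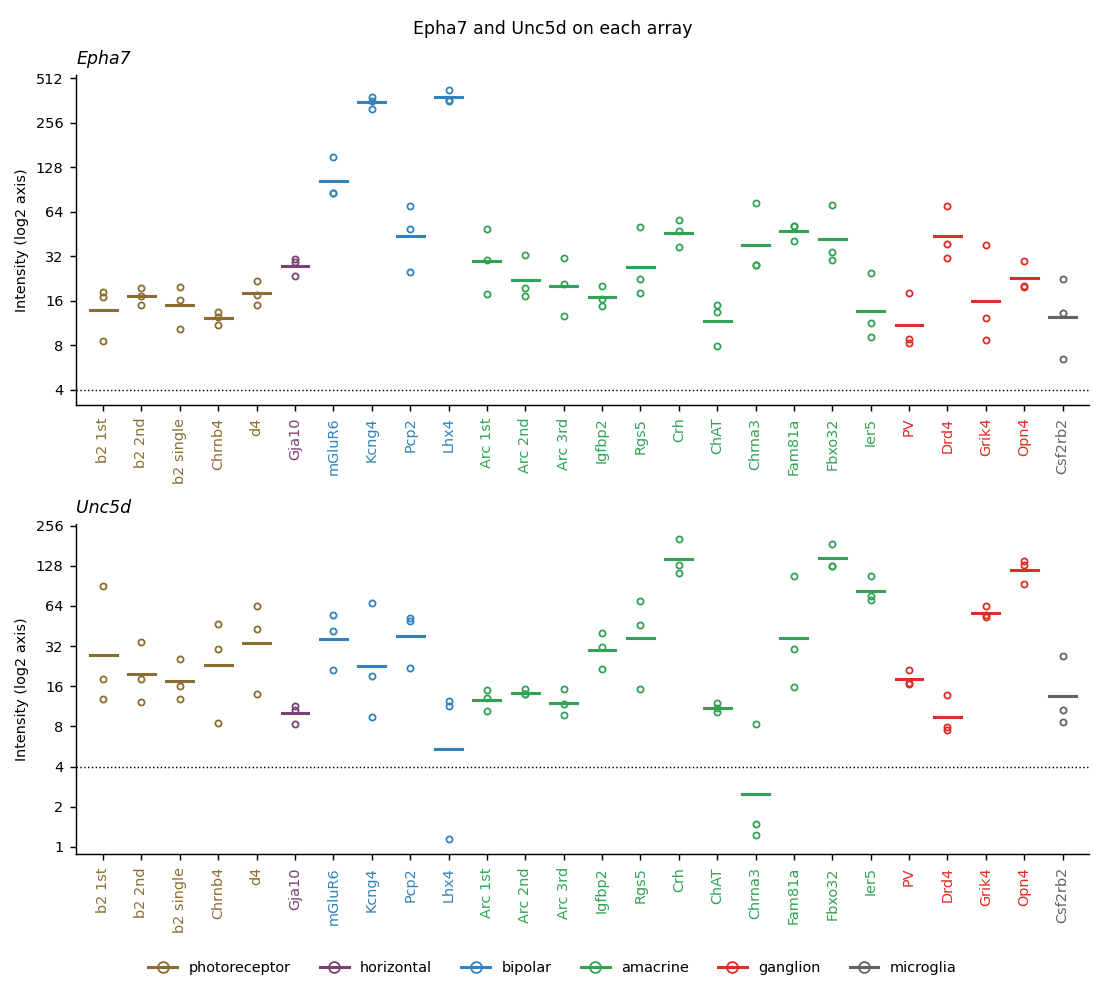
Intensity of Epha7 and Unc5d (log2 axis) on each of the 78 arrays (open circles) in 26 sets, with the geometric mean of each set as a bar and colours for the cell classes. The dotted line marks 3.99, the level to which lower values were raised for the ranges. Epha7 is above 300 on all Kcng4 and Lhx4 arrays, and Unc5d spans from below the dotted line in Chrna3 to above 90 in Fbxo32, Crh and Opn4.

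Other Eph receptors separated single lines. Epha3, another receptor for A-type ephrins, measured 19.0, 17.5 and 8.48 in Lhx4, higher by 1.19 log2 units than the other bipolar lines (SE 0.22, adjusted p = 0.00032), although its lowest array fell among theirs; it was 0.87 without replicate 1 and 1.02 without replicate 2, neither called. Ephb6, an Eph receptor without kinase activity, measured 37.3, 38.3 and 26.3 in the starburst line ChAT, higher than the other amacrine lines by 1.26 (SE 0.29, adjusted p = 0.0033), with an overlap, and it was not called without replicate 1 (1.22) or 2 (1.16). Epha7 was lower in ChAT than in the other amacrine lines by 1.31 log2 units (adjusted p = 0.012), and higher in Drd4 than in the other ganglion lines by 1.47 (adjusted p = 0.0065). The first was not called without replicate 2 (-1.07) or 3 (-1.37) or with batch as a term (-1.43), and the second not without replicate 1 (1.00) or against the ganglion lines of batch 3 (1.20). Bipolar markers summed to 421 in Drd4 against a median of 60.9 over sets, and the part of other cells in its Epha7 value was not tested. Epha4, which binds ephrins of both types, measured 24.3, 38.0 and 28.2 in Crh, above every array of the other amacrine lines, a difference of 1.50 (SE 0.22, adjusted p = 3.1e-07). Beside this, Epha4 measured 42.7, 20.3 and 20.4 in Drd4 and 8.86, 13.6 and 18.2 in Grik4. These are the other lines with high sums of Müller glia markers outside microglia. Lines with lower sums also had Epha4 set means above that of Grik4 (13.0). Among them were Lhx4 (21.1, sum 314), mGluR6 (20.9, sum 244) and Gja10 (16.5, sum 265). The part of other cells in the Crh value was not tested. With batch as a term the Epha4 difference in Crh was 0.99, just under the limit of 1.

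The receptor Unc5d, which binds netrin and FLRT proteins, had a range second to that of Epha7 with values raised to 3.99 and split lines inside every class with several lines except the photoreceptors. It was high in 2 amacrine lines, at 129, 186 and 129 in Fbxo32 and 130, 112 and 203 in Crh, and in the melanopsin line Opn4 at 139, 93.0 and 131. Ier5 (108, 70.4 and 76.1) and Grik4 (54.8, 53.2 and 63.7) came next. Every array of these 5 lines lay above 50, but some arrays of b2, Fam81a, Rgs5 and other lines reached that level as well. At the other end, Chrna3 measured 1.49, 8.37 and 1.23, Lhx4 1.14, 11.5 and 12.5, and Drd4 7.89, 13.8 and 7.47. The 9 Arc arrays lay between 9.73 and 15.2 over 3 separate sets, and no pair of sets was called different.

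Against the other lines of its class, Unc5d was called in 7 of 20 line comparisons. Within the amacrine class it was higher in Fbxo32 by 2.52 log2 units (SE 0.53, adjusted p = 0.0026) and in Crh by 2.50 (adjusted p = 0.00014), and lower in Arc by 1.41 (adjusted p = 0.0048) and in Chrna3 by 4.09. With values raised to 3.99, the Chrna3 difference was at least 3.05 log2 units, and its arrays did not overlap those of any other amacrine line. Within the ganglion class it was higher in Opn4 by 2.48 (SE 0.57, adjusted p = 0.012) and lower in Drd4 by 2.41 (adjusted p = 0.0034), and neither line's arrays overlapped those of the other ganglion lines. Compared only with the ganglion lines of batch 3, the differences were 2.37 in Opn4 and -3.14 in Drd4. Without the lines of low array correlation, which include Drd4, the Opn4 difference was 1.89 (limma, adjusted p = 0.0505) and was not called. In the bipolar class it was lower in Lhx4, by at least 1.93 with raised values, but it was not called with batch as a term (-2.43, adjusted p = 0.068) or without replicate 1 (-1.46). Leaving out replicate 3 also ended the calls in Fbxo32 (2.47), Arc (-1.51), Opn4 (2.37) and Drd4 (-2.22), and leaving out replicate 2 those in Fbxo32 (2.46), Arc (-1.37) and Opn4 (2.77), while those in Crh and Chrna3 were kept. With batch as a term the Arc difference was -1.09 (adjusted p = 0.078). No class difference reached the threshold: it was 0.82 ± 0.89 (SE) in the ganglion class and -1.23 ± 1.55 in the horizontal class, the highest and the lowest of the 6.

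The other netrin receptors and the netrins had smaller ranges than Unc5d. Of 26 set means, those above the median intensity of 9.01 numbered 3 for Dcc, 1 for Unc5b, 11 for Unc5c, 12 for Ntn4 and 25 for Ntn1. Whether weak signal of the dimmer probe sets narrowed their ranges was not tested. Dcc, the receptor for netrin attraction, ranged over set means from 5.93 in Ier5 to 12 in Crh, and Unc5c from 6.86 in d4 to 13.0 in Crh. The netrin Ntn1 ranged from 8.93 in Chrnb4 to 15.7 in Csf2rb2 and the related Ntn4 from 7.22 in Fbxo32 to 11.6 in the second b2 set. None of Dcc, Unc5b, Unc5c, Ntn1 and Ntn4 was called in any class or line comparison. In the ganglion class, whose axons are known to meet netrin at the optic nerve head, the difference was 0.27 for Dcc (95% interval -0.03 to 0.58) and 0.32 for Unc5c (0.05 to 0.60, adjusted p = 0.13).

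In microglia, the co-receptor Nrp1 and the class 4 semaphorin receptor Plxnb2 were higher than in every other line. Nrp1, which also binds VEGF, measured 16.9, 22.5 and 36.7 on the 3 Csf2rb2 arrays, and the next line, Drd4, 12, 10.6 and 14.4. A Crh array, at 17.5, was the only array elsewhere that reached the lowest Csf2rb2 array. The difference from the other classes was 1.79 ± 0.27 log2 units (SE, 1 line; adjusted p = 7.5e-05). Plxnb2 measured 15.9, 25.9 and 14.7 in Csf2rb2, with a single overlapping array in Drd4 (16.4), and differed by 1.33 ± 0.27 (adjusted p = 0.0015). limma called 5.68% of all genes higher in this class, and 2 of 57 members. The endothelial list summed to 45.0 in Csf2rb2 and to between 42.2 and 763 in the other sets. The Müller glia list summed to 3461 in Csf2rb2, of which Apoe gave 3263, Glul 120 and Rlbp1 29.9, and to between 180 and 2621 in the other sets. The part of other cells in the Nrp1 and Plxnb2 values was not tested. The class is 1 line, so line and class cannot be told apart, and its spread is taken from the classes with several lines.

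In the ganglion class, no member was called, but Slit2 and its receptor Robo2 separated the ganglion lines. Slit2, a secreted repellent, measured 27.5, 31.5 and 15.8 in Drd4, 10.4, 19.3 and 16.8 in Grik4, 8.72, 7.93 and 7.97 in Opn4, and 4.42, 5.79 and 6.78 in PV. Drd4 and Grik4 overlapped, and every PV array lay below every array of the other ganglion lines. Against the other ganglion lines Drd4 was higher by 1.44 log2 units (SE 0.22, adjusted p = 5.6e-06) and PV lower by 1.36 (SE 0.22, adjusted p = 1.2e-05). The PV difference was -0.75 with batch as a term (adjusted p = 0.46), and PV is the only ganglion line of batch 1. Drd4 was higher by 1.11 than the other ganglion lines of batch 3. Robo2 measured 23.4, 24.3 and 30.1 in Drd4, above all arrays of the other ganglion lines, by 1.07 (SE 0.22, adjusted p = 0.00096). With batch as a term this was 0.97. The Drd4 call of Slit2 was kept in all alternatives run. The limma fit called 6.34% of all genes in Drd4 and 4 of 57 members, and Drd4 was one of the lines with raised Müller glia and endothelial sums; their part was not tested. In the class comparison Slit2 was 0.87 (adjusted p = 0.089) and Robo2 0.61 (adjusted p = 0.083) above the other classes, neither past the threshold. Slit2 was also higher in the amacrine line Igfbp2 (11.1, 12.9 and 21.1) than in the other amacrine lines, by 1.19 (adjusted p = 3.8e-05), and by 0.91 against those of batch 3 alone, 0.79 with batch as a term and 0.94 without replicate 3, none of them called.

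Among the 23 guidance genes chosen whatever their test, the largest ganglion difference was that of Epha5, a receptor for A-type ephrins that is known from the retinocollicular map. Its lowest and highest arrays in the 12 ganglion samples were 9.26 and 19.5, and the photoreceptor arrays lay between 4.51 and 6.81 in b2 and d4 and at 9.88, 7.37 and 5.84 in Chrnb4. The groups overlapped: at least 1 array of Crh, Chrna3, Lhx4, Arc, Chrnb4, Kcng4, Pcp2, Rgs5 and ChAT lay above the lowest ganglion array. The class mean of 13.5 against 7.17 gave a difference of 0.92 ± 0.20 log2 units (adjusted p = 0.0060), just under the limit of 1. Its ligand Efna5 differed by 0.42 (adjusted p = 0.072), Ephb1 by 0.32 (adjusted p = 0.18) and Efnb2 by 0.11 (adjusted p = 0.61). For the retinal sublayer cues the ganglion differences were 0.20 for Sema6a, -0.03 for its receptor Plxna2, 0.04 for Plxna4, 0.23 for Sema5a and 0.07 for Sema5b. The receptors of the latter, Plxna1 and Plxna3, were at -0.12 and 0.02. Robo1 was at -0.43 (adjusted p = 0.069), the reverse sign of Robo2, and Robo3, Slit1 and Ntn4 lay within 0.03 of 0.

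**Figure D3:**
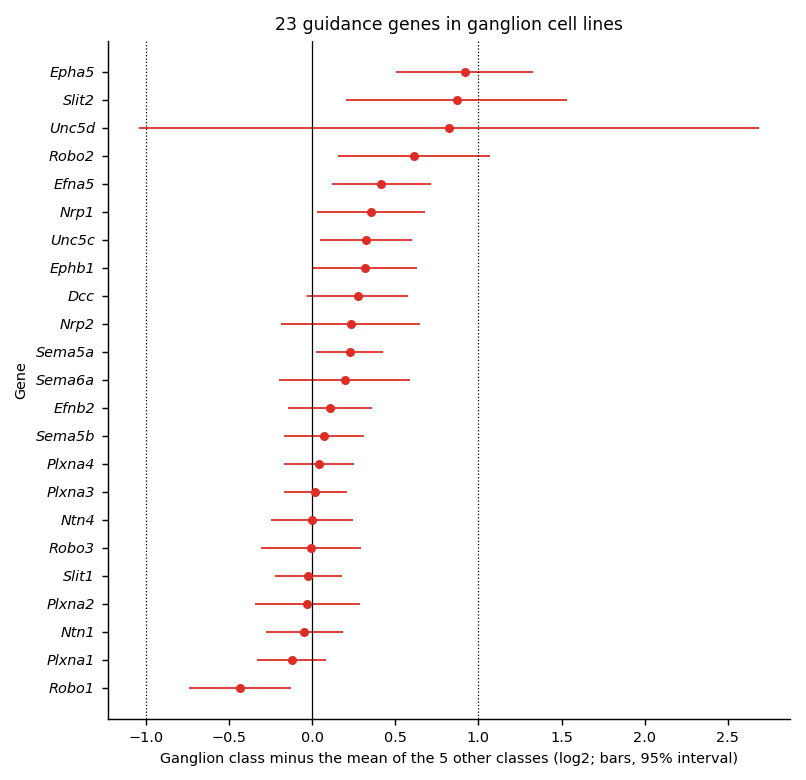
Difference of the ganglion class from the mean of the 5 other classes (log2 units) for the 23 genes chosen whatever their test, with 95% intervals from the limma fit over 22 line means; dotted lines mark -1 and 1. Epha5 lies highest at 0.92, and 22 of the 23 points lie closer to 0.

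The remaining semaphorins showed their differences mainly as gradients below the threshold or in single lines. Sema3f, a secreted ligand of Nrp2 receptors, was highest in rods, at 37.5, 39.6 and 42.1 in the first b2 set, 63.8, 34.0 and 65.2 in the second and 55.2, 40.4 and 41.1 in the set labelled single. It measured 19.6, 32.2 and 46.6 in the Chrnb4 cones and 18.1, 23 and 20.9 in the d4 cones; the d4 arrays lay below all rod arrays and the Chrnb4 arrays overlapped them. The photoreceptor class difference was 1.08 with an SE of 0.49 (adjusted p = 0.16). In Crh, Sema3f was 12.5, 1.47 and 0.889, at least 1.64 log2 units below the other amacrine lines, with no overlap. Sema3f was also low in 1 Drd4 array (1.33) and in Grik4 (11.2, 5.23 and 6.43). In Crh the rod marker Gnat1 was at 840 and the rod markers Nrl and Pde6b at 4.68 and 1.91; the part of other cells in the Sema3f value was not tested.

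Sema6a, the transmembrane ligand of plexins A2 and A4, was highest in the amacrine line Arc and in Igfbp2. Its 9 Arc arrays lay between 13.7 and 33.7, the 3 Igfbp2 arrays between 17.1 and 20.3 and the Gja10 horizontal arrays at 12.3, 13.6 and 23.3. The amacrine class exceeded the other classes by 0.56 ± 0.15 log2 units (adjusted p = 0.024), which was under the limit of 1. Slit1 was 12.4, 12.2 and 12 in the horizontal line, a difference of 0.69 ± 0.17 (adjusted p = 0.044). In the photoreceptor class Plxnb2 was lower by 0.58 (SE 0.17, adjusted p = 0.033). Sema4a, a transmembrane semaphorin known for its part in photoreceptor survival, measured 18.0, 29.5 and 19.3 in Crh, above every array of the other amacrine lines, by 1.18 (SE 0.14, adjusted p = 5.2e-09), and by 0.96 without replicate 2. Nrp2, the co-receptor of Sema3f, measured 13.0, 26.6 and 15.5 in Chrna3, above all other amacrine arrays, by 1.18 (SE 0.16, adjusted p = 7.2e-08), and by 0.87 without replicate 2. The values without replicate 2, 0.96 for Sema4a and 0.87 for Nrp2, are under the limit of 1.

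**Figure D4:**
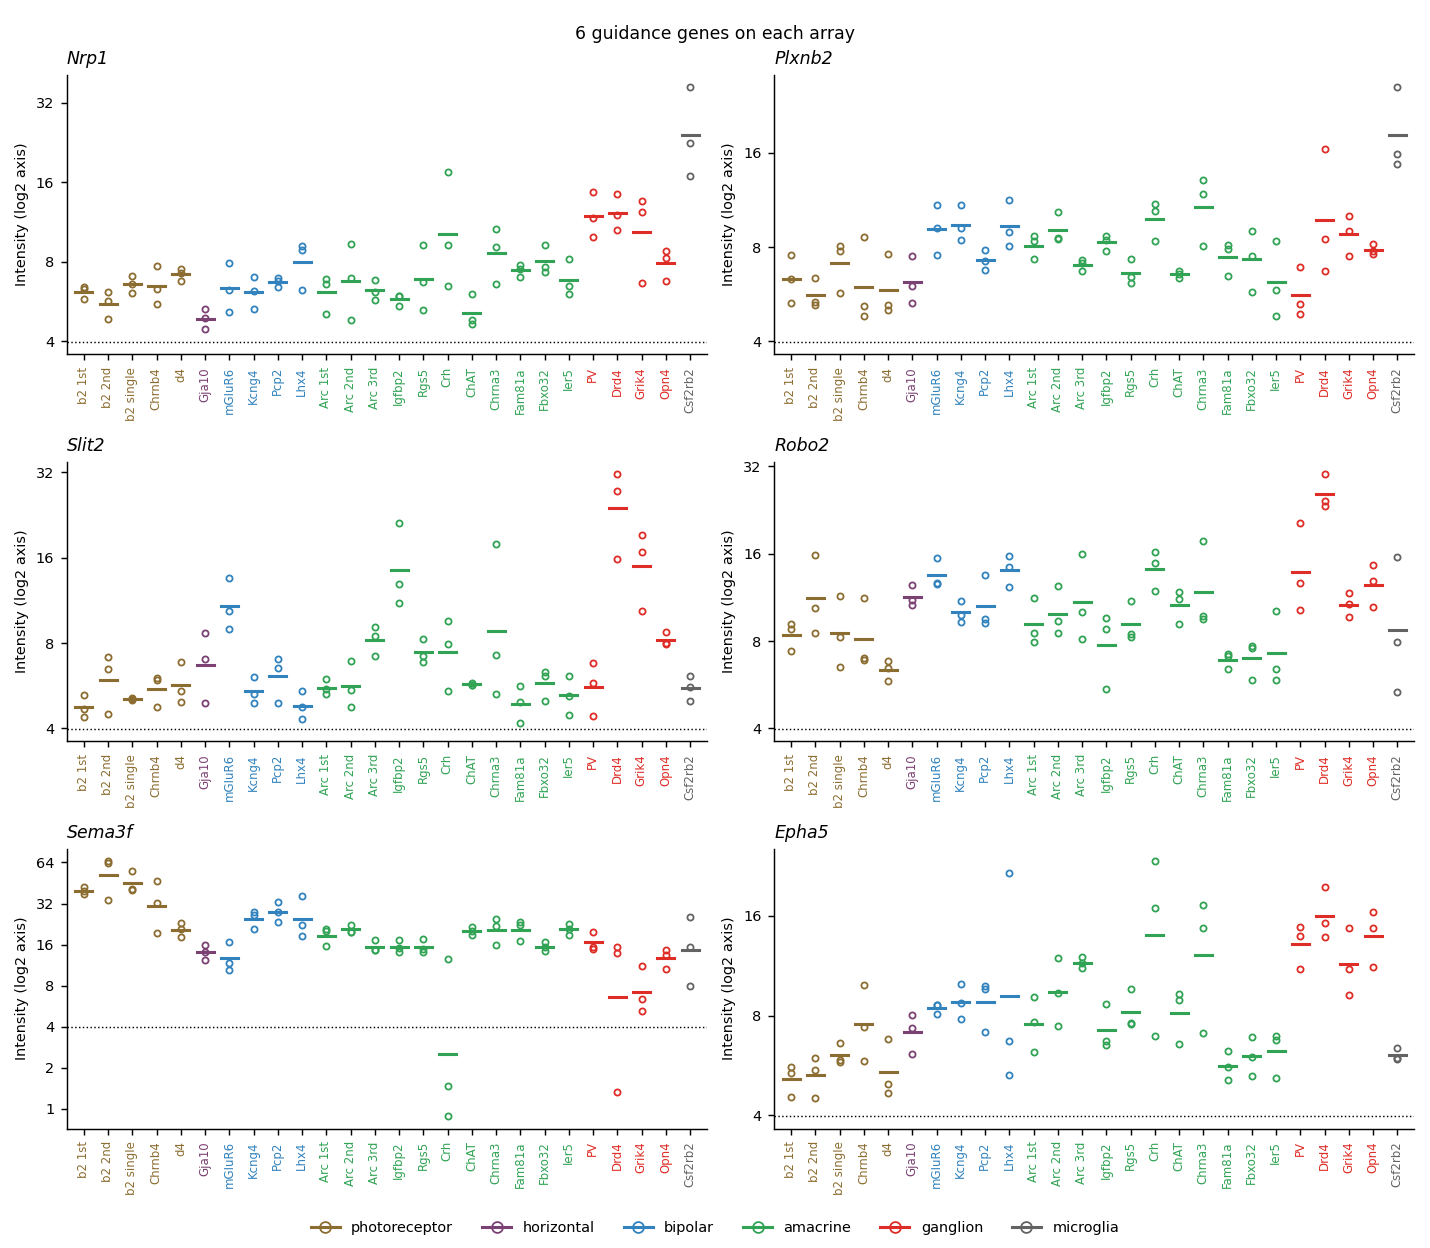
Intensity of Nrp1, Plxnb2, Slit2, Robo2, Sema3f and Epha5 (log2 axes, 1 panel each) on every array (open circles) with the geometric mean of each set (bars), coloured by cell class; dotted lines mark 3.99. Nrp1 and Plxnb2 are highest in Csf2rb2, Slit2 and Robo2 in Drd4, Sema3f in the b2 rod sets, and Epha5 is high in all 4 ganglion lines and on some arrays of Crh, Chrna3, Lhx4, Arc and other lines.

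Over the 20 comparisons of a line with the other lines of its class, 25 of 1140 member tests were called (2.19%), 14 higher and 11 lower, where 4.21% of all gene tests were. They involved 12 members, led by Unc5d with 7 calls, Epha7 with 6 and Slit2 with 3, and fell in 12 lines; 45 tested members were called nowhere. In 10 of the 25 calls the line's arrays did not overlap those of any other line of the class. The matching share over the calls of all genes is not given here, so this count says nothing about the members as a group. The other 15 lie outside the rule for named genes, and those described here were chosen after their values were seen. The 5 lines with array correlations below 0.8 held 15 of the 25 calls (60.0%) and 48.0% of the calls of all genes. By line, limma called 18.3% of all genes in Crh, 7.87% in Chrna3, 2.77% in ChAT, 1.24% in Arc, 1.44% in Igfbp2 and 0.841% in Fbxo32 among the amacrine lines with a called member. In the bipolar lines it called 0.841% in Kcng4, 2.85% in Pcp2 and 2.79% in Lhx4, and in the ganglion lines 6.05% in PV, 6.34% in Drd4 and 0.675% in Opn4. The member calls were 4 of 57 in Crh, Chrna3 and Drd4, 3 in Lhx4 and 1 or 2 in the others. Chrna3 also had lower Epha10 (2.55, 32.2 and 22.5; -1.19, adjusted p = 0.045) and lower Unc50 (103, 284 and 134; -1.18, adjusted p = 0.0076), each with arrays far apart. Without replicate 1 they were 0.030 and -0.86, and neither was called. Epha7 was lower in PV by 1.20 log2 units (adjusted p = 0.028), by 0.80 without those 5 lines (adjusted p = 0.21), and by 1.01 and 0.85 without replicate 1 or 2, none called. No member was called in b2, Chrnb4, d4, mGluR6, Rgs5, Fam81a, Ier5 or Grik4. All-gene calls in those 8 lines were 10.7%, 5.05%, 7.77%, 2.56%, 0.775%, 1.52%, 1.85% and 1.86%, in the same order. The repeated sets of the same line served as a check: over 6 comparisons of Arc or b2 sets, 1 member was called, Unc50, lower in the first than in the second b2 set by 1.50 (adjusted p = 0.046), with 2.08% of all genes called there. The other 5 comparisons called 0.053%, 0.457% and 0.0728% of all genes between Arc sets and 1.19% and 2.03% between b2 sets.

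The list of cytoplasmic effectors of these receptors held 37 tested genes, of which 4 were called higher and none lower in the ganglion class (3.26% of all genes were called higher), with a list median of 0.18 log2 units against 0.01 for all genes. The 4 were Chn1 (1.95 ± 0.26), a Rac regulator acting behind Epha4, Srgap3 (1.25 ± 0.26), a GTPase regulator that binds Robo, the kinase Pak3 (1.06 ± 0.25) and the kinase Fyn (1.04 ± 0.26). In the amacrine class Srgap3 and Chn1 were higher, in the horizontal class Srgap3 and in the bipolar class Pak3, where 2.77%, 1.21% and 2.66% of all genes were called. In the photoreceptor class (6.36% of all genes called) 1 was higher, Dpysl3, and 6 were lower, including Chn1 and Srgap3, with a list median of -0.25 against -0.05. In microglia (9.32% of all genes called) 3 were higher and 3 lower, among them Srgap2 higher by 3.36 and Srgap3 lower by 4.92. Of 29 tested surface or secreted partners, none was called in the bipolar, amacrine or ganglion class (2.66%, 2.77% and 4.23% of all genes called in either direction), 1 was called in the photoreceptor class (Lrrc4c, lower), 1 in the horizontal class (Lrrc4, higher by 2.14) and 3 in microglia (Plxdc2, Adam10 and Plxdc1, higher), where 6.36%, 1.21% and 9.32% of all genes were called. Genes of these lists other than the 4 of the ganglion class were named after their values were seen.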

How the data were processed

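The authors deposited 1 linear intensity per probe set and array (Affymetrix Mouse Gene 1.0 ST). The submitters' processing notes name RMA, the oligo package, R 2.11.1 and the build mm9, with no settings. All 78 columns share the same sorted values, as quantile normalization gives. Here log2 was taken. The platform's annotation gave 1 symbol for 19446 of 22347 probe sets, several for 735 and none for 2166; the brightest probe set stood for a gene. Genes with a set mean above 9.01 were tested (15102). The lowest values on 70 of the 78 arrays follow probe set order, so values were also raised to 3.99, the end of the longest such run. limma 3.58.1 (R 4.3.3; lmFit, eBayes with trend) compared classes over 22 line means and lines over 78 arrays, and was tested on simulated data. The number of arrays limits the precision, and intensities of different probe sets are not compared. Alternatives were another normalization, filter, floor, probe set summary and prior, batch, left-out lines and replicates, and a replicate block. The labels give no batch for d4, Fbxo32 and the second Arc set; the batch term took the last as batch 2 from its number and left out the others. The labels do not say that equal replicate numbers pair samples. With set means removed, 33 of 78 arrays correlated best with arrays of their own number among the 3, which does not settle whether they do. Named members were those called in a class, line calls without overlap, and 23 members whatever their test. Members and lists were chosen with earlier results of these data known.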

Additional observations from a re-analysis of the deposited data

Results flagged for a closer look

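Among the named members, 2 values stood away from the other arrays of a 9-array line, by a gap to the next array larger than expected for 9 values. Of 34 such groups looked at, chance flags about 1 in 20. Epha3 was 9.47 on replicate 1 of the second b2 set, where the next b2 array was 6.21. Sema4a was 11.7 on replicate 3 of the first b2 set, where the next was 9.04. Neither gene was called in a comparison of b2.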

How the results depend on the processing

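Of 541 recalculations of the 33 single-gene results, 485 kept the direction and the side of the threshold, 53 fell short of it, 1 passed it and 2 turned the direction. In 11 results none changed, among them Nrp1 and Plxnb2 in microglia, Epha7 in Pcp2, Slit2 in Drd4, Sema3f in Crh and Unc5d in Crh and Chrna3. The 2 turns were Epha7 in Kcng4 against Lhx4 alone, the other bipolar line of its batch (-0.12), and Epha10 in Chrna3, between -2.03 and 0.030 when a replicate number was left out. Leaving out lines 1 at a time gave between 0 and 1 called members in the photoreceptor class (Sema3f without Crh, Epha4 lower without Csf2rb2) and in the ganglion class (Slit2 without PV, 1.21, adjusted p = 0.018). In the lines of batch 1 alone, 0 members were called in the bipolar class. The 25 line calls became between 16 and 30 when a replicate number was left out. They were 17 with batch as a term, without Fbxo32, 17 without the 5 lines of low array correlation and 26 with the replicate block. The 1 call between repeated sets became 0 with cyclic loess and 0 with the replicate block, and between 0 and 2 without a replicate; the cause was not tested. Cyclic loess moved the median gene of an array by -0.16 to 0.13 log2 units. Without raising values to 3.99, the range over sets was 5.87 for Unc5d, 4.36 for Sema3f and 2.16 for Epha10. Raising values for the ranges, the without-5-lines setting and the within-batch setting were chosen after seeing the data.

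Dim probe sets limit most members: 10 had no set mean above the median intensity, and 44 of 57 stayed below 20 in all sets. Each class of 1 line rests on 3 arrays.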
